A study of Homo sapiens with 6 samples.

Results

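VGF and 8 other genes of the granin neurosecretory system were followed in A2780 cells, an established human ovarian cancer line, with and without knockdown of USP39, a protein of the spliceosome. The members were chosen by name, as the rows of the deposited table with the symbols VGF, SCG2, SCG3, SCG5, CHGA, CHGB, PCSK1, PCSK1N and CPE. These are 9 of 16571 gene symbols in the table, and all 9 had a row. Because they were chosen with results of this comparison already known, their differences between groups are given as a description, without a p-value. RNA-seq was performed on 3 libraries of cells with the pGIPZ-NC control vector and 3 libraries of cells with the shUSP39 hairpin, both delivered by lenti-virus. According to the study's methods, stable lines were made with puromycin selection, so the control cells also carried a vector and had met the drug. Which of the study's hairpins the shUSP39 libraries carried is not given in the labels. The design text calls the libraries biological triplicates without saying how the cultures were separated, so p-values below measure the spread between these libraries only.

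Granins are acidic proteins that are packed into dense-core vesicles, the storage organelles of the regulated secretory pathway in neurons and endocrine cells. Their precursors are cut at pairs of basic residues by prohormone convertases, and the basic residues left at the ends are then trimmed by a carboxypeptidase, which frees small peptides for release on stimulation. Several of these genes serve as clinical markers of neuroendocrine differentiation. VGF was first known as a gene induced by nerve growth factor, and a cAMP response element (CRE) near its start is a textbook site for CREB family factors.

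The DNA just before the start of the genes is shown for VGF and PCSK1N, which had the largest differences and in opposite directions, and for CPE, the next most abundant member. The 250 bases upstream of each annotated start are from the RefSeq promoter table of build GRCh38.p14, which held 7 of the 9 genes (not SCG2 and CHGB). They are written 5′ to 3′ on the gene's strand. The VGF stretch is chr7:101165570-101165819 (minus strand), that of PCSK1N is chrX:48835611-48835860 (minus strand) and that of CPE is chr4:165378758-165379007 (plus strand). Capitals mark the full CRE in VGF and the shorter CRE core TGACG (or CGTCA) in CPE, and PCSK1N had neither.
VGF: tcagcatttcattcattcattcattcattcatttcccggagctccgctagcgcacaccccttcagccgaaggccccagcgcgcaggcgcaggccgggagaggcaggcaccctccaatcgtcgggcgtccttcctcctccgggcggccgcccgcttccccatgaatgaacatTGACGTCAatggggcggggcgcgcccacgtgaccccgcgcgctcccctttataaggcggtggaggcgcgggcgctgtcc
PCSK1N: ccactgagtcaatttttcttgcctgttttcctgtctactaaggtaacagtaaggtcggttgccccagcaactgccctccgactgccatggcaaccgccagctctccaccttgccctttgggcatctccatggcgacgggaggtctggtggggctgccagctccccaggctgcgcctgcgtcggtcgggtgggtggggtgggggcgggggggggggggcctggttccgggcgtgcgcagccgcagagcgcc
CPE: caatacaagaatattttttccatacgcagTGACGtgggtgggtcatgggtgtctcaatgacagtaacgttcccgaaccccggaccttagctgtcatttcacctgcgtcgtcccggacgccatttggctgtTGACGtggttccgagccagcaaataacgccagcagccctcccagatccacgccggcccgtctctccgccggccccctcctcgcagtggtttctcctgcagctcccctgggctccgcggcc

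The full CRE was searched as TGACGTCA, which reads the same on both strands, and its core as TGACG or CGTCA, so that each full CRE also holds the core. VGF held 1 full CRE, whose first base lay 79 bases before the start, together with 1 E-box (CACGTG) and 1 CCAAT box (CCAAT or ATTGG). CHGA and PCSK1 each held 1 full CRE as well, 54 and 77 bases before a start, and these are shown with their flanks. Both genes had counts near 0 in these cells, and each has 2 RefSeq coding transcripts, which may bear on how reads were counted. A relation between the 8 letters and the level of these genes was not tested. PCSK1 had a second annotated start without one.
VGF: tgaatgaacatTGACGTCAatggggcgggg
CHGA: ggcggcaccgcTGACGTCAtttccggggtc
PCSK1: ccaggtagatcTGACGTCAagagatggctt
Of 35116 upstream stretches of the same length, 1.65% held the full CRE, 21.2% the core, 6.34% the E-box and 32.0% the CCAAT box. A match only says that these letters are present and gives no evidence of binding.

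The total was between 28294819 and 32939264 counts per library. After a filter on low counts, 10695 genes were tested with edgeR for the log2 fold change of shUSP39 over pGIPZ-NC (log2FC), and 3598 of them (33.6%) passed a Benjamini-Hochberg adjusted p of 0.05, 1726 (16.1%) higher and 1872 (17.5%) lower in shUSP39. This split was 2077 higher and 1501 lower under upper-quartile scaling. The libraries of shUSP39 replicates 2 and 3 stood apart in the number of genes with a count, at 15446 and 14890 against 12662 to 12819 in the other 4, so values without them are given where they matter. The labels call the line serous ovarian, and of 13 markers of that tissue only KRT18 (22.2 CPM in pGIPZ-NC) and KRT19 (24.2 CPM) passed 10 CPM (counts scaled to a common library total) in a group. Of 4 serous markers tested, 1 rose and 2 fell at an adjusted p under 0.05 (75.0%, against 33.6% of all genes). KRT18 rose to 33.1 CPM and KRT19 fell to 1.98 CPM (log2FC -3.64, adjusted p 3.51e-17). KRT8 also fell (0.970 to 0.0315 CPM), and KRT7 did not pass (log2FC 0.45, adjusted p 0.695). KRT8 and KRT7 were named after their values were seen. MUC16, also named afterwards and not tested, had at most 0.189 CPM in 4 libraries and 4.96 and 2.41 CPM in shUSP39 replicates 2 and 3. PAX8, EPCAM, MSLN, SOX17, ESR1 and WFDC2 had at most 6 counts in any library, and WT1 and FOLR1 had no row and were not analysed here. In a bulk sample, fewer cells of a type and less RNA per cell cannot be told apart.

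Of the 9 genes, 4 were expressed well above the counting floor and 5 were hardly detected. VGF was the most abundant by far and was lower in shUSP39, SCG2 and CPE were moderately lower, and PCSK1N, the inhibitor of the system, was more than 3 times higher. 5 of the 9 genes passed the filter on low counts. Of these, VGF was lower and PCSK1N higher beyond 2-fold at an adjusted p under 0.05, where 6.81% of all tested genes were (4.53% higher, 2.28% lower). The groups did not overlap in VGF, SCG2, PCSK1N and CPE, as in 44.5% of all tested genes (24.1% higher, 20.3% lower). Since the comparison was known when the genes were chosen, nothing is read from these counts.

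**Figure D1:**
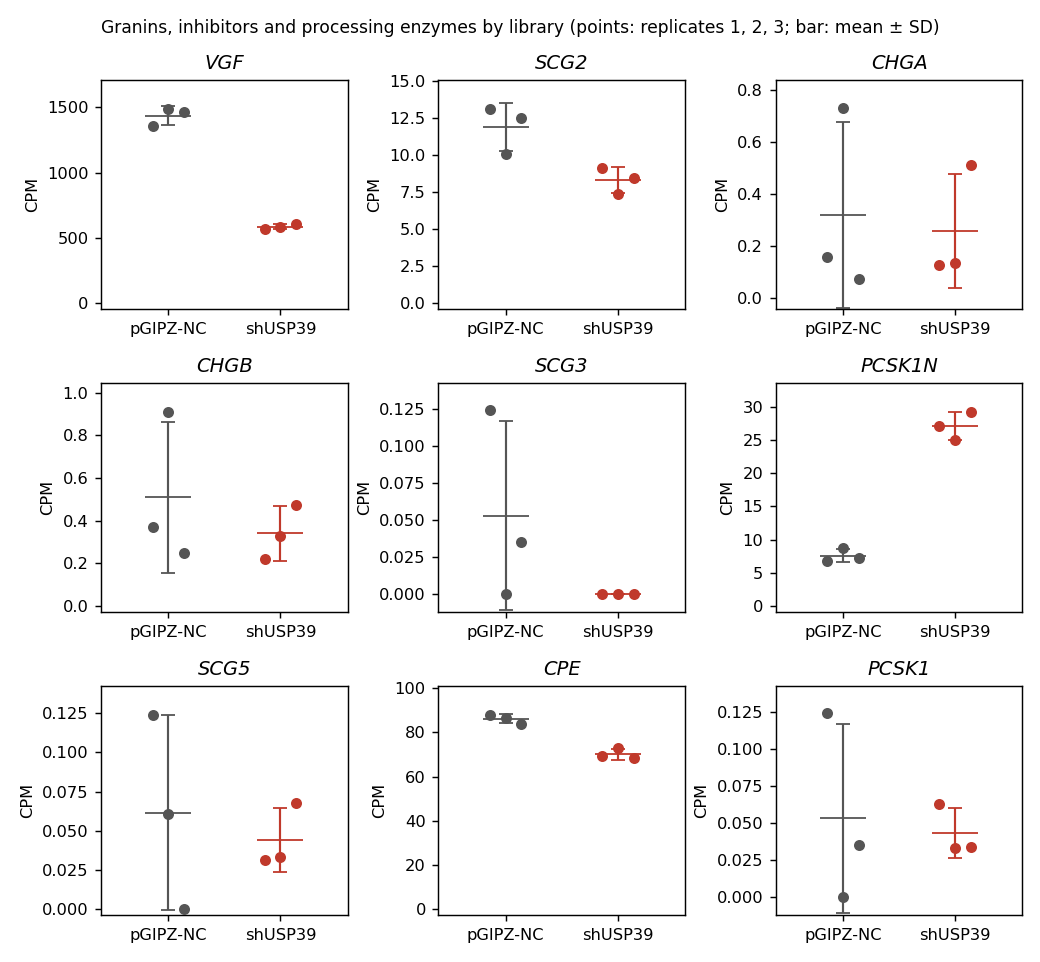
Level of each gene in CPM (linear axis) in the 3 pGIPZ-NC and 3 shUSP39 libraries. Points are libraries and the bar with its whiskers is the mean ± SD. VGF, SCG2 and CPE lie lower and PCSK1N higher in all shUSP39 libraries, while CHGA, CHGB, SCG3, SCG5 and PCSK1 stay under 1 CPM and overlap.

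The granins were examined first. VGF is the precursor of several neuropeptides linked to energy balance and synaptic activity. The gene lies on chromosome 7 (100805790 to 100808850, minus strand, GRCh37), has 2 exons, overlaps no other annotated gene and was counted in 1 RefSeq row. It had 43766, 49036 and 41474 counts in pGIPZ-NC replicates 1, 2 and 3 and 18062, 17669 and 17942 counts in shUSP39 replicates 1, 2 and 3. Every shUSP39 library was therefore below the lowest control library by more than 2-fold. In CPM these were 1358, 1489 and 1466 against 568, 584 and 610 CPM. The mean was 1437 ± 70.0 CPM in the controls and 588 ± 21.1 CPM with shUSP39 (SD, n = 3), a ratio of 0.409. The log2FC was -1.32 (SE 0.04). Libraries of a group differed little, with a coefficient of variation of 4.87% in pGIPZ-NC and 3.59% in shUSP39. The value was -1.36 in shUSP39 replicate 1 alone against the controls, so it was as large without the libraries that stood apart.

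SCG2 is the granin from which secretoneurin is made. The gene lies on chromosome 2 (224461658 to 224467079, minus strand, GRCh37). It had 423, 332 and 354 counts in the pGIPZ-NC libraries and 291, 224 and 248 in the shUSP39 libraries. All shUSP39 libraries were below all controls, but the gap between the nearest ones was small, at 10.1 CPM in pGIPZ-NC replicate 2 and 9.15 CPM in shUSP39 replicate 1. The mean went from 11.9 ± 1.61 to 8.33 ± 0.878 CPM (SD, n = 3), with a log2FC of -0.54 (SE 0.14). It was -0.40 in shUSP39 replicate 1 alone.

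CHGA and CHGB, the chromogranins that drive granule formation in chromaffin and other endocrine cells, were barely detected. CHGA (chromosome 14) had 5, 24 and 2 counts in pGIPZ-NC and 4, 4 and 15 in shUSP39, and did not pass the filter. CHGB (chromosome 20) had 12, 30 and 7 counts in pGIPZ-NC and 7, 10 and 14 in shUSP39. In both genes pGIPZ-NC replicate 2 was the highest library, and the groups overlapped. CHGB passed the filter with a log2FC of -0.62 (SE 0.62), whose sign rested on that library, since it was 0.10 without it. A difference in either gene was not detectable at these counts. SCG3, a granin that binds chromogranin A and cholesterol at the granule membrane, had 4, 0 and 1 counts in pGIPZ-NC. It had 0 counts in each shUSP39 library, which allows up to 3 counts per library, or 0.0944 to 0.102 CPM. These limits cover counting error only.

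The chaperone and inhibitor of the convertases were compared next. PCSK1N encodes proSAAS, a granin-like protein that inhibits the convertase encoded by PCSK1. The gene lies on chromosome X (48689506 to 48694012, minus strand, GRCh37), has 3 exons and was counted in 1 row. It had 221, 286 and 203 counts in pGIPZ-NC and 860, 756 and 860 counts in shUSP39. The lowest shUSP39 library thus held more than 2 times the counts of the highest control. It averaged 7.57 ± 0.976 CPM in the controls and 27.1 ± 2.12 CPM with shUSP39 (SD, n = 3), a ratio of 3.58. The log2FC was 1.81 (SE 0.11), and also 1.81 in shUSP39 replicate 1 alone. SCG5, which encodes the chaperone of the convertase PCSK2, had 4, 2 and 0 counts in pGIPZ-NC and 1, 1 and 2 in shUSP39, so it was near the floor in both groups, and PCSK2 itself had no row and was not analysed here.

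Of the 2 processing enzymes, CPE was well expressed and PCSK1 was not. CPE encodes carboxypeptidase E, which trims the basic residues and also acts in sorting to the granule. It lies on chromosome 4 (166282346 to 166419699, plus strand, GRCh37), where a pseudogene and a microRNA gene overlap it. CPE had 2838, 2852 and 2375 counts in pGIPZ-NC and 2200, 2207 and 2006 in shUSP39. Relative to the library totals this was 86.2 ± 2.08 and 70.1 ± 2.52 CPM (SD, n = 3), with no overlap and a log2FC of -0.32 (SE 0.06). PCSK1, the convertase that makes the first cuts in most granin precursors, had 4, 0 and 1 counts in pGIPZ-NC and 2, 1 and 1 in shUSP39, summed over its 2 transcript rows. The counts of PCSK1, the target enzyme of proSAAS, were thus near the floor in both groups, while the mean level of PCSK1N differed by more than 3-fold. PCSK1 has 2 RefSeq coding transcripts, and whether shared reads were left out of its counts was not tested.

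The members can be ordered by level only after correction for mRNA length, as CPM per kb. In pGIPZ-NC the order was VGF (563 ± 27.4 CPM per kb), CPE (33.4 ± 0.805), PCSK1N (7.39 ± 0.952) and SCG2 (4.89 ± 0.661; SD, n = 3). These 4 levels were separated by more than their SDs, and VGF ranked 100th of 15732 genes with an annotated length. VGF has 1 RefSeq coding transcript, and genes with more had lower median levels. Its ranks among all genes may therefore depend on how reads were counted, which was not tested. CHGB, CHGA, SCG5, SCG3 and PCSK1 followed at 0.207 CPM per kb or less, and neighbours among them did not differ beyond their spread. In shUSP39 VGF was still first at 230 ± 8.27 CPM per kb, and ranked 305th. CPE (27.2 ± 0.976 CPM per kb) and PCSK1N (26.4 ± 2.07) were then level within their spread, followed by SCG2 at 3.42 ± 0.361 (SD, n = 3). The distance between CPE and PCSK1N seen in the control libraries was therefore absent in the knockdown libraries.

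**Figure D2:**
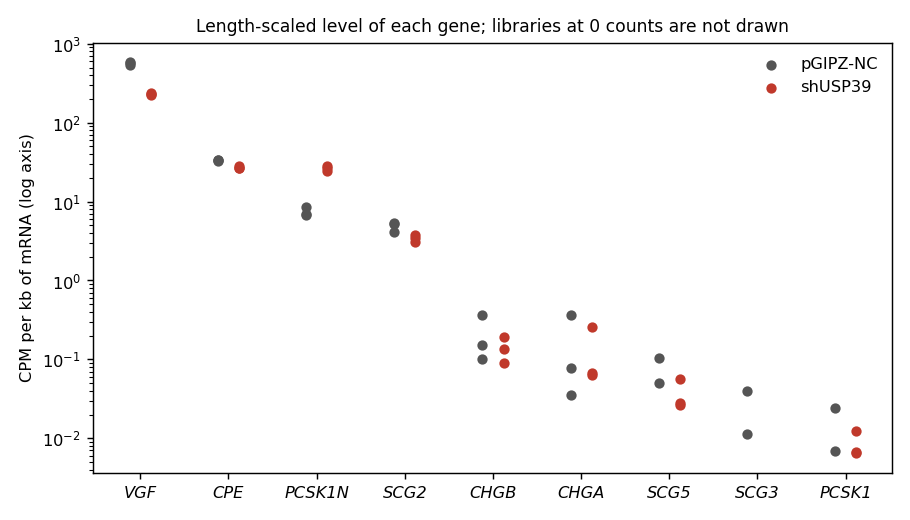
Level of each gene per kb of mRNA on a log axis, ordered by the pGIPZ-NC mean, with 1 point per library and libraries at 0 counts left out. VGF leads in both groups, and PCSK1N reaches the level of CPE (26.4 and 27.2 CPM per kb) in shUSP39.

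The composition of the set shifted with these values. VGF made up 93.1% ± 0.440 of the counts of the 9 genes in the controls and 84.7% ± 0.394 with shUSP39 (SD, n = 3). There were 171 to 204 VGF counts for each PCSK1N count in the control libraries and 20.9 to 23.4 in the shUSP39 libraries. Without VGF, the other 8 genes summed to 107 ± 2.47 CPM in the controls and 106 ± 0.621 CPM with shUSP39 (SD, n = 3). The lower CPE and SCG2 and the higher PCSK1N thus left this sum within the spread between libraries. With VGF the sum was 1467 to 1596 CPM and 674 to 717 CPM.

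How reads were assigned to transcripts may bear on the low members and on ranks among all genes. The genes with 1 RefSeq coding transcript (6495 genes) had a median of 0.957 CPM per kb in pGIPZ-NC. The median was 0.678 with 2 transcripts (3210 genes), 0.390 with 3 to 4 (2908 genes) and 0.348 with 5 or more (2933 genes). VGF, SCG2, CHGB, PCSK1N and CPE have 1 such transcript in the RefSeq table of GRCh38.p14. SCG3, CHGA and PCSK1 have 2 and SCG5 has 4, and these are the 4 genes that did not pass the filter. CHGB, with 1 transcript, was also low, at 0.207 CPM per kb in pGIPZ-NC. Whether reads shared by several transcripts were left out of these counts was not tested.

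Other genes were then counted from 5 lists, to place the members beside them. The lists hold genes of the regulated secretory pathway, regulators of neuroendocrine genes, and neuroendocrine and neuronal markers. Among 8 tested enzymes of prohormone processing, 1 rose and 1 fell at an adjusted p under 0.05 (2 rose and 1 fell under upper-quartile scaling), or 25.0% against 33.6% of all genes, and their median log2FC was 0.10 against 0.01 over all genes. MBTPS1, a protease that activates membrane-bound transcription factors, fell from 407 ± 7.67 to 346 ± 4.61 CPM (SD, n = 3), by 0.26 in log2 units (SE 0.04, adjusted p 1.27e-06). QPCTL, a glutaminyl cyclase of the Golgi, had a log2FC of 0.25 (SE 0.09, adjusted p 0.0312), and its call was lost in shUSP39 replicate 1 alone (0.385) and without pGIPZ-NC replicate 1 or 3 or shUSP39 replicate 2 or 3 (0.0570 to 0.154).

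Of 45 genes of dense-core vesicle biogenesis and release, 22 were tested, 6 rose and 2 fell. This was 36.4% past the adjusted p, against 33.6% of all genes, and the median log2FC was 0.25. The genes that rose were SYT7, HID1, RAB3A, RAB3B, UNC13A and CPLX1, and those that fell were SYT11 and RAB3D, of which the RAB3 genes, UNC13A and CPLX1 were named after their values were seen. SYT11, a synaptotagmin that does not bind calcium, had 8.75, 8.23 and 9.65 CPM in the controls and 3.65, 4.13 and 2.89 CPM with shUSP39. All knockdown libraries were below all controls, and the log2FC was -1.34 (SE 0.17, adjusted p 4.6e-07). HID1, which acts in granule biogenesis at the trans-Golgi network, had 2.61, 2.94 and 1.63 CPM in the controls and 5.16, 5.29 and 4.08 CPM with shUSP39. Its log2FC was 0.98 (SE 0.23, adjusted p 0.00124). SYT7, a calcium sensor of slow vesicle release, had at most 18 counts in a library and a log2FC of 2.08 (SE 0.66, adjusted p 0.0160), which did not pass in shUSP39 replicate 1 alone (0.258), without a filter (0.0579) or without any one of pGIPZ-NC replicates 1 and 2 and shUSP39 replicates 2 and 3 (0.0563 to 0.0849). The small GTPases of the vesicle surface did not move together: RAB3B had a log2FC of 0.77 (SE 0.05, adjusted p 5.55e-13), RAB3A of 0.54 and RAB3D of -0.52 (SE 0.06, adjusted p 2.13e-07).

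Among 44 precursors of peptide hormones and growth factors that share this route, 31 had a row, 11 were tested, 3 rose and 3 fell. This was 54.5% past the adjusted p, against 33.6% of all genes, and the median log2FC was 0.12. STC2, a stanniocalcin, had 66.8, 60.1 and 62.8 CPM in the controls and 176, 176 and 175 CPM with shUSP39. It rose by 1.45 in log2 units (SE 0.05, adjusted p 3.9e-18), with no overlap between groups. APLN, the precursor of the peptide ligand apelin, rose to 28.3 ± 1.94 CPM (SD, n = 3) with a log2FC of 1.47 (SE 0.10, adjusted p 6.71e-12). BDNF, a neurotrophin that neurons release from dense-core vesicles, had 1.80, 1.34 and 2.19 CPM in the controls and 0.0629, 0.265 and 0.238 CPM with shUSP39. It fell by 3.24 in log2 units (SE 0.50, adjusted p 1.01e-05), and the log2FC was -4.75 in shUSP39 replicate 1 alone and -6.20 by transcript rows. BDNF had at most 62 counts in a library and was near the floor in shUSP39, so the size of its fall is uncertain. The other genes past the threshold, named after their values were seen, were ADM (0.70), NTS (-0.99) and GCG (-1.20), given as log2FCs, and GCG did not pass without pGIPZ-NC replicate 2 (adjusted p 0.0720) and was at -2.06 in shUSP39 replicate 1 alone.

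Regulators of neuroendocrine genes were compared because REST, the repressor that silences many neuronal genes outside neurons, and the CREB family are among the known controls of granin genes. Of 17 tested, 1 rose and 3 fell (23.5% past the adjusted p, against 33.6% of all genes), and the median log2FC was -0.09. Under upper-quartile scaling 3 rose and 2 fell. REST had 8.72, 9.62 and 8.20 CPM in the controls and 8.24, 9.79 and 10.2 CPM with shUSP39. The groups overlapped, and its log2FC of 0.06 (SE 0.14) did not pass (adjusted p 0.775). CREB1 had at most 14 counts in a library and did not pass either (adjusted p 0.853), and it is a gene with several transcripts. INSM1, a transcription factor of neuroendocrine lineages, had at most 1 count in a library. NEUROG2, a proneural factor, was the most changed of the abundant ones, at 123, 123 and 131 CPM in the controls and 37.3, 44.5 and 45.5 CPM with shUSP39, with a log2FC of -1.59 (SE 0.07, adjusted p 1.05e-16). EGR1 fell by 0.20 (SE 0.04, adjusted p 0.000315). INSM2 had a log2FC of 3.06 (SE 0.77, adjusted p 0.00257) at 0.660 ± 0.345 CPM in shUSP39 and 0.0736 ± 0.0706 CPM in the controls (SD, n = 3), which is near the floor. Its log2FC was 4.16 without pGIPZ-NC replicate 1 and 2.56 without shUSP39 replicate 1. RCOR2, a REST corepressor named after its values were seen, had a log2FC of -0.14 and did not pass under upper-quartile scaling (adjusted p 0.0885) or without pGIPZ-NC replicate 2 (0.0669) or shUSP39 replicate 1 (0.0557).

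**Figure D3:**
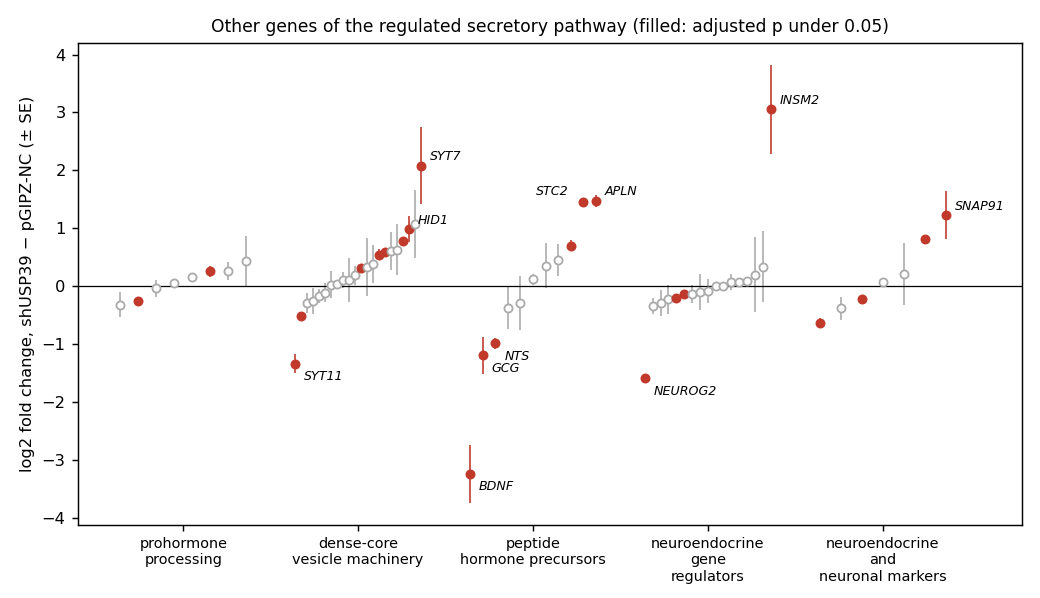
Log2FC (shUSP39 minus pGIPZ-NC) with its SE for the tested genes of 5 lists, each ordered by value, with filled points at an adjusted p under 0.05. The lists cover the regulated secretory pathway, regulators of neuroendocrine genes, and neuroendocrine and neuronal markers. Each list holds genes on both sides of 0, from BDNF at -3.24 to INSM2 at 3.06.

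To see whether other neuronal or neuroendocrine genes were present, 20 markers were read. Of 7 tested, 2 rose and 2 fell (57.1% past the adjusted p, against 33.6% of all genes). The list summed to 881 to 914 CPM in pGIPZ-NC and 877 to 908 CPM in shUSP39, mostly from ENO2 and UCHL1. SYP, a vesicle membrane protein used beside chromogranin A in diagnosis, fell from 34.9 ± 1.48 to 22.8 ± 1.27 CPM (SD, n = 3), by 0.64 in log2 units (SE 0.08, adjusted p 6.06e-07). ENO2, a neuronal enolase, fell by 0.23 (SE 0.03, adjusted p 9.98e-06) from 376 CPM. TUBB3, the neuronal tubulin, rose from 37.3 ± 4.64 to 66.5 ± 5.48 CPM (SD, n = 3), by 0.81 in log2 units (SE 0.08, adjusted p 7.98e-09). SNAP91, a clathrin adaptor of synapses, had a log2FC of 1.22 (SE 0.41, adjusted p 0.0231) and did not pass in shUSP39 replicate 1 alone (0.231), by transcript rows (0.0738) or without pGIPZ-NC replicate 2 or shUSP39 replicate 2 or 3 (0.0607 to 0.0999). UCHL1 was at 444 ± 14.3 and 471 ± 8.93 CPM (SD, n = 3; adjusted p 0.180, and 0.0183 under upper-quartile scaling) and MAP2 at 5.59 and 4.36 CPM (adjusted p 0.142). NCAM1, NEFM, ELAVL3, ELAVL4, CELF3 and DCX had at most 2 counts in any library. NCAM1, DCX and ELAVL4 have several RefSeq coding transcripts, and SP1, a factor of most cell types named after its values were seen, had at most 5 counts in the same table. Counts near 0 are therefore not read as absence of these markers.

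Finally, the genes whose pattern was most like VGF were sought among 9081 tested genes with a mean of at least 1 CPM, by the root mean square difference between profiles of log2 CPM over the 6 libraries, each centred on its pGIPZ-NC mean. The nearest were COL1A2 (0.0555), GSN (0.0864), PRTG (0.0941), HMGA2 (0.100) and SERPINB9 (0.111). The median distance over all candidates was 0.943. Since profiles were centred on the controls, this median mostly follows from the fall of VGF itself, and nothing is read from it. COL1A2, a chain of type I collagen, went from 1149 ± 37.4 to 462 ± 11.8 CPM (SD, n = 3), with a log2FC of -1.34. PRTG, a cell surface protein of early neural development, went from 126 ± 0.482 to 50.3 ± 3.61 CPM (SD, n = 3). Since these genes were picked for this pattern, their differences carry no test. COL1A2 also belongs to a list of 7 fibroblast markers. Of 6 tested, COL1A2, COL3A1, DCN and LUM fell at an adjusted p under 0.05 (4 genes, or 66.7%, where 17.5% of all tested genes were lower). COL1A1 (adjusted p 0.380) and PDGFRB (0.577) did not pass. COL1A2 was picked for its fall, so its pass was fixed beforehand and nothing is read from this share. The list summed to 2528 to 2646 CPM in pGIPZ-NC and 1244 to 1319 CPM in shUSP39. COL3A1 was at 1440 and 819 CPM, LUM at 4.68 and 0.382 CPM and DCN at 1.12 and 0.0790 CPM, while COL1A1 was at 7.42 and 6.58 CPM, PDGFRB at 1.13 and 1.40 CPM, and FAP had at most 4 counts in a library. Their part in the level of VGF was not tested. Among 6 leukocyte markers only CD68 was over 1 CPM (10.7 and 11.2 CPM, adjusted p 0.825). The 5 endothelial markers had group means under 1 CPM and were not tested, and VWF, named after its values were seen, reached 1.32 CPM in shUSP39 replicate 2.

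**Figure D4:**
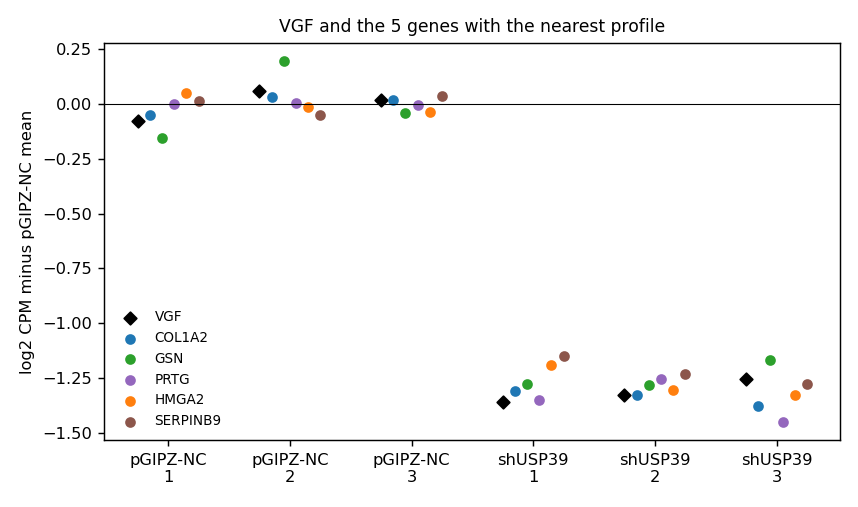
Log2 CPM minus the pGIPZ-NC mean in each library for VGF (diamonds) and the 5 genes with the nearest profile (circles). All 6 genes lie near 0 in pGIPZ-NC and between -1.45 and -1.15 in shUSP39, which is the likeness they were chosen for.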

How the data were processed

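RNA-seq libraries of A2780 cells, 3 pGIPZ-NC and 3 shUSP39, were grouped and numbered by their titles. The authors deposited raw counts of reads for each RefSeq mRNA, with a column for every library. The submitters' processing notes list HISAT2, Cufflinks and hg19, without versions or roles, and the counter is not given in the sources used here. Columns of group means, fold change, p-value and q-value hold the authors' own comparison and were not used. The 21368 rows were summed to 16571 symbols, with 46 of 47 date-like symbols replaced by accession. Differential expression was tested with edgeR 4.0.16 (limma 3.58.1, R 4.3.3): filterByExpr, TMM factors, robust quasi-likelihood fit with group as the only term, all 6 libraries, Benjamini-Hochberg adjustment over all genes. The SE is the absolute log2 fold change divided by the square root of F. Calls needed an adjusted p under 0.05 and, where stated, over 2-fold. The fit was tested on simulated data. Positions and the length of the canonical transcript came from GENCODE 44 on GRCh37 (a length for 94.9% of symbols). Neither the use of strand in counting nor the handling of reads in overlapping genes is stated. Genes that overlap others (SCG3, SCG5, PCSK1 and CPE here) are therefore uncertain.

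The members and gene lists were chosen with earlier results of these data known. Of 184 other list genes, 158 had a row, and the older symbol TSSC1 stood for EIPR1. Genes named are the 9 members, the 3 largest changes past the adjusted p in each list, REST, CREB1 and INSM1, markers over 10 CPM (serous ovarian) or 1 CPM (other cell types), and the 5 genes nearest to VGF. Others are marked as chosen afterwards, and 1 gene that the rule names is not reported here. USP39 was not analysed here, so its level gives no check of the labels. Alternatives were other scalings (DESeq2 1.42.0 size factors, upper quartile, library size), filters, the DESeq2 test, limma-voom, a replicate block, each library left out, shUSP39 replicate 1 alone, transcript rows and a 1.5-fold limit.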

Additional observations from a re-analysis of the deposited data

How the results depend on the processing

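The log2 fold changes of VGF (-1.36 to -1.27), SCG2 (-0.65 to -0.40), CPE (-0.35 to -0.28) and PCSK1N (1.74 to 1.92) kept their direction in all 16 alternatives. In each of 17 alternatives 2 members were called, where 6.81% of all tested genes were called in the main fit. Nothing is read from this count, since the comparison was known when the members were chosen. Leaving out single libraries gave CHGB from -0.94 to 0.10, and it was -1.23 in shUSP39 replicate 1 alone. The number of called genes was 728 in the report, 471 where each library had to reach 10 counts and 1226 with a 1.5-fold limit, as stricter and looser limits give. The number past the adjusted p was 2244 in shUSP39 replicate 1 alone, with fewer libraries. In the prohormone processing list 2 genes passed, against 1 to 4 when single libraries were left out and 1 in shUSP39 replicate 1 alone. The total past the adjusted p in each of the other 4 lists stayed within 1.5 times in all 16 alternatives, although the split of the regulators turned from 1 higher and 3 lower to 3 higher and 2 lower under upper-quartile scaling. REST ran from -0.0020 (without shUSP39 replicate 3) to 0.15 with single libraries left out and was -0.13 in shUSP39 replicate 1 alone. CREB1 ran from -0.12 (without pGIPZ-NC replicate 2) to 0.62, none past the threshold. The cause was not tested.

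With the replicate number as a block, 745 genes were called and 3981 passed the adjusted p. Same-numbered libraries hardly deviated together (correlations of 0.069, 0.0048 and 0.022 over genes), so the numbers were not treated as pairs. With no more than 24 counts in a library, SCG3, SCG5, CHGA and PCSK1 are limited to a statement of their counts.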
